A study of Mus musculus with 8 samples.

Results

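The results concern a 10 Mb block of mouse chromosome 16, from 30 to under 40 Mb of genome build mm9, in prefrontal cortex of mice lacking α-galactosidase A. The block comprised 277 of the 55681 non-control probe target regions on the array, namely every probe whose listed start lay in it, except the probes of Timmdc1. The block was chosen by measured values: probes that differed between the genotypes in these same 8 arrays, by p and fold change, were more numerous there than elsewhere. All levels, fold changes and p-values of the members below are therefore descriptions, and counts of members that differed give no independent evidence about the block.

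Prefrontal cortex was taken from 4 male α-Gal A(-/0) mice on a C57BL/6 background and from 4 male wildtype C57BL/6J mice, all 20 to 24 weeks old. α-Gal A(-/0) males carry a disrupted X-linked gene for the lysosomal enzyme α-galactosidase A and serve as a model of Fabry disease, in which the glycolipid globotriaosylceramide accumulates. Each array was hybridized with RNA of 1 mouse. The genotypes came from separate inbred colonies, so genotype and colony cannot be told apart.

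A block of chromosome is not a pathway: its genes are neighbours by position and have unrelated roles. Neighbouring genes can share enhancers or a chromatin domain, and some are transcribed from opposite strands of the same sequence. In this block lie genes of ketone body use (Bdh1), lipid transport (Apod), signaling at synapses (Kalrn), interferon-induced ADP-ribosylation (Parp9, Parp14, Dtx3l) and O-glucosylation of Notch receptors (Poglut1). The array also carries probes named only by a genomic interval and a strand (F, forward; R, reverse), which were designed for long intergenic non-coding RNAs. Of the 277 probes, 187 carried the symbol of a gene, 67 an interval and 23 another identifier.

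All 8 arrays lay on 1 slide, scanned once, with 1 α-Gal A(-/0) and 3 wildtype arrays in the first row of the slide and the others in the second row. Between 29943 and 38240 probes were well above background per array. The lowest number was that of α-Gal A(-/0) replicate 2, whose values also scattered most about the group means (SD 0.38 log2 units, against 0.16 to 0.25 on the other arrays). The probe of Gla, the gene encoding α-galactosidase A, averaged 17.15 in α-Gal A(-/0) and 17.09 in wildtype mice (log2 signal), and where it lies relative to the disruption is not given in the sources used here, so it does not check the labels. Markers of excitatory and inhibitory neurons, astrocytes, oligodendrocytes, microglia and endothelium were well above background, and none of these lists lacked a member. Bulk tissue was measured, so fewer cells of a type and less RNA per cell cannot be told apart.

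In the following, a level is the log2 signal after quantile normalization and a difference is the log2 fold change, α-Gal A(-/0) minus wildtype. Of the 277 probes, 179 entered the test because every array of 1 genotype or of both detected them well above background; of the other 98, 73 were detected on no array. Differences were tested with limma over all 34339 such probes of the array, with Benjamini-Hochberg adjustment. In the block 7 of 179 probes had an adjusted p under 0.05, of which 6 were lower in α-Gal A(-/0) mice and 1 was higher, where the background was 0.877% of all tested probes (0.571% lower and 0.306% higher). By the criterion of the study, an unadjusted p of at most 0.01 and a change of at least 1.2-fold, 19 probes differed, 5 higher and 14 lower, against a background of 3.43% (1.15% higher and 2.28% lower). The 4 values of one genotype all lay above the 4 of the other at 30 probes, against a background of 7.94%. No inference is drawn from these shares, since the rule that chose the block used them.

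The number of calls depended on single arrays, and calls over the whole array also became fewer, 183 to 258 with an array left out against 301. The 7 calls became 0 without α-Gal A(-/0) replicate 1 or without wildtype replicate 3, 1 without wildtype replicate 1 or replicate 2, 2 without wildtype replicate 4, 3 without α-Gal A(-/0) replicate 2 or replicate 4, and 5 without α-Gal A(-/0) replicate 3. At an unadjusted p under 0.05, limma gave 42 probes with all arrays (23.5%, where the share over all tested probes was 11.9%), 37 without α-Gal A(-/0) replicate 1 (20.7%, against 12.6%) and 35 without wildtype replicate 3 (19.2%, against 9.61%). The 5 probes past the criterion that were higher became 8 without α-Gal A(-/0) replicate 4 and 3 without wildtype replicate 2. They became 2 without α-Gal A(-/0) replicate 3, wildtype replicate 1 or wildtype replicate 3. With an array left out, 2.47% to 4.11% of all tested probes on the array were past the criterion in either direction. With the slide row as a block, 1 probe was called and 12 were past the criterion, 2 higher and 10 lower. Over the whole array 144 probes were then called and 2.58% were past the criterion. Under that block the differences of the 7 called probes were −0.35 and −0.38 (Tmem44), 0.59 (the interval transcript), −0.58 and −0.51 (Bdh1), −0.62 (Dtx3l) and −1.77 (Upk1b). Row 1 alone gave 1 and 10, and row 2 alone gave 0 and 0, with 6 probes at an unadjusted p under 0.05 by limma; each row sets 1 mouse of a genotype against 3 of the other, so these counts say nothing about stability. All 19 probes past the criterion kept their sign in every one of these fits that tested them.

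The sequences of a few probes are shown first because the results turn on them: some neighbouring probes of a gene, and a pair of probes on opposite strands of the same bases, gave unlike differences. Positions are those of the array's mm9 annotation, and the sequences are those of the array's probe list, written 5′ to 3′. The first pair belongs to the interval chr16:30936314-30954449. One probe is on the forward strand (chr16:30948128-30948187) and the other on the reverse strand (chr16:30948114-30948173); the 46 bases that they share as reverse complements are in capitals.
Forward-strand probe: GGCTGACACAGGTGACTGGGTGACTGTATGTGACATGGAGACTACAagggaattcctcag
Reverse-strand probe: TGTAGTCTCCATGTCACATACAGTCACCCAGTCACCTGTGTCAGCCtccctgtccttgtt

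From 3 reverse-strand probes of the interval chr16:34559623-34560462, given in the order of the transcript, only the second passed the criterion. They lie at chr16:34559807-34559866, chr16:34559747-34559806 and chr16:34559670-34559729.
Probe A_30_P01020639: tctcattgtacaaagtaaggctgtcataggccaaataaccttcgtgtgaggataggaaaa
Probe A_30_P01021999: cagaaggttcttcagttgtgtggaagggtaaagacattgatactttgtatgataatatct
Probe A_30_P01022637: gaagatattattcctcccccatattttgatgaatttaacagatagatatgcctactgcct

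For genes, bases 16 to 45 of the probes of Bdh1 and Apod are given, since within each gene the probes disagreed. The Bdh1 probes lie on the forward strand at chr16:31457249-31457308, chr16:31457378-31457437 and chr16:31458195-31458254. The Apod probes lie on the reverse strand at chr16:31296299-31296358 and chr16:31297206-31297265. Whether these targets are coding or untranslated sequence was not analysed here.
Bdh1 A_55_P2181753: agctgttgaggattacccactgtcttagga
Bdh1 A_51_P163106: ctcagggccaatatggtgcttctatctatc
Bdh1 A_52_P468343: tgtattgggaacttctttttaattaaactg
Apod A_55_P2055158: tcacttagttcctgttgtatagtctgttgt
Apod A_55_P2093286: ccacactgtcaccttgctagcccaataata

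Bdh1 encodes the mitochondrial enzyme that interconverts the ketone bodies acetoacetate and 3-hydroxybutyrate. At probe A_55_P2181753 the levels were 11.47, 11.55, 11.77 and 11.52 in α-Gal A(-/0) mice and 12.10, 12.17, 12.01 and 12.16 in wildtype mice. At probe A_51_P163106 they were 12.61, 12.72, 12.90 and 12.62 in α-Gal A(-/0) mice and 13.13, 13.13, 13.19 and 13.23 in wildtype mice. At both probes every α-Gal A(-/0) mouse lay below every wildtype mouse, and replicate 3 was the highest of its genotype. The differences were −0.53 ± 0.08 and −0.46 ± 0.08 (SE, n = 4 mice each, limma adjusted p = 0.0227 and 0.0388). The remaining probe, A_52_P468343, lies beside them, the 3 targets together spanning 1.005 kb. Its levels were 8.55, 8.21, 8.07 and 8.50 in α-Gal A(-/0) mice and 8.25, 7.83, 8.05 and 8.12 in wildtype mice, which overlapped (0.27 ± 0.13, adjusted p = 0.471).

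Tmem44, which encodes a multi-pass membrane protein, was the only gene of the block with several tested probes of which all were past the criterion. Probe A_65_P10673 (chr16:30514103-30514162, reverse strand) gave 11.01, 10.98, 10.99 and 10.88 in α-Gal A(-/0) mice and 11.38, 11.42, 11.35 and 11.27 in wildtype mice. Probe A_55_P2046074 (chr16:30537553-30537612) gave 8.20, 8.07, 8.07 and 8.27 in α-Gal A(-/0) mice and 8.48, 8.61, 8.51 and 8.56 in wildtype mice. The genotypes did not overlap at either probe, and the differences were −0.39 ± 0.06 and −0.39 ± 0.07 (adjusted p = 0.0220 and 0.0453). Probe A_55_P1983944, the one nearest the 30 Mb border (chr16:30512112-30512171), gave −0.56 ± 0.16 and did not pass the adjustment (adjusted p = 0.241). The 3 probes span 25.5 kb.
The central 30 bases of the Tmem44 probes, which agreed, stand here for comparison, in order along the chromosome.
Tmem44 A_55_P1983944: gctacatgaaggtaaatttcatatacacct
Tmem44 A_65_P10673: aataacgtgaccacgagtgagggaatgagt
Tmem44 A_55_P2046074: gaggacaatgacagccatcagtcgctacat

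The interval transcript chr16:30936314-30954449, forward strand, gave the only call that was higher in α-Gal A(-/0) mice. Its tested probe had levels of 8.73, 8.51, 8.68 and 8.65 in α-Gal A(-/0) mice, against 8.08, 8.23, 7.90 and 8.09 in wildtype mice. All α-Gal A(-/0) values lay above all wildtype values, by 0.57 ± 0.08 (adjusted p = 0.0230). The reverse-strand probe that shares 46 bases with it averaged 8.34 in α-Gal A(-/0) and 8.32 in wildtype mice (0.02 ± 0.10). A second reverse-strand probe, A_30_P01031176, spans 0.141 kb together with the first and averaged 5.544 in α-Gal A(-/0) and 4.996 in wildtype mice (0.55 ± 0.17, groups overlapping). The probe of the interval chr16:30939991-30940193, which lies within the first, gave 0.30 ± 0.11, with adjusted p values over 0.05 for it and for both reverse-strand probes.

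**Figure D1:**
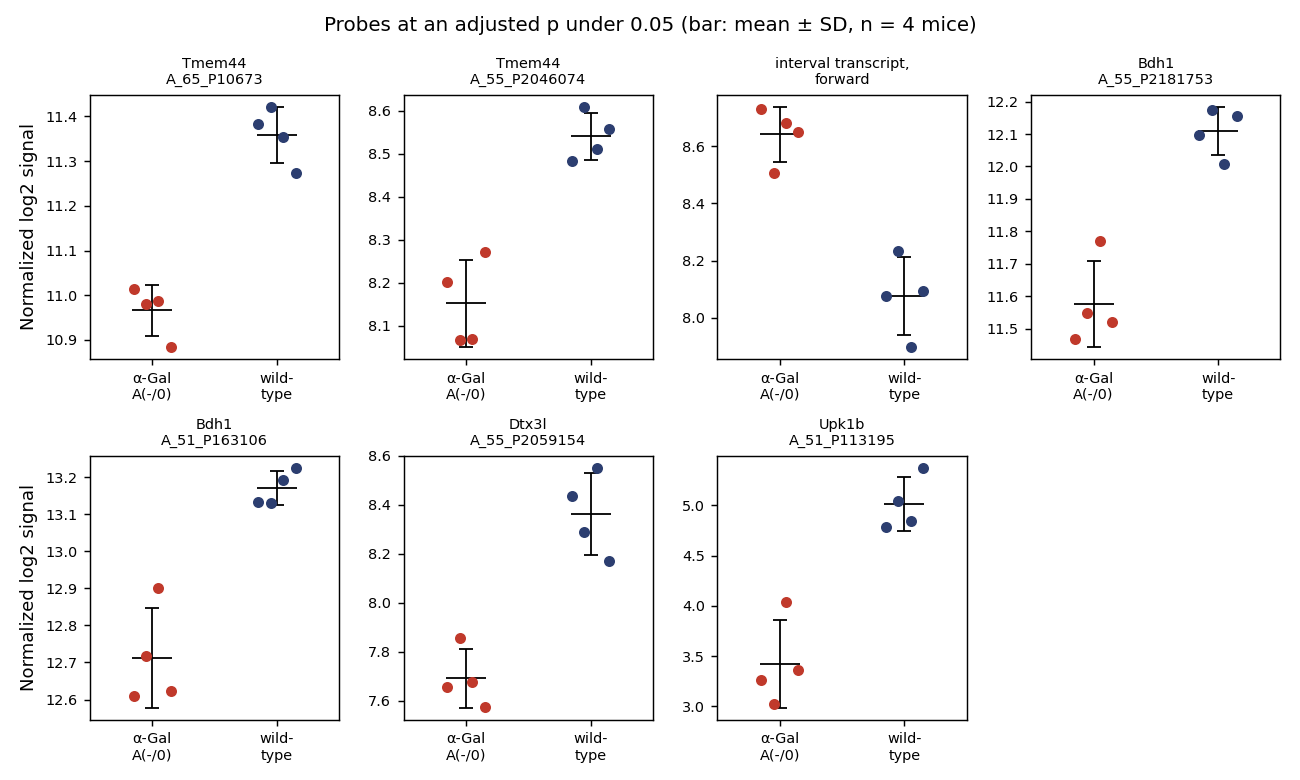
Normalized log2 signal (vertical axes, each with its own range) of the 7 probes with an adjusted p under 0.05, in α-Gal A(-/0) mice (red, left) and wildtype mice (blue, right); each point is 1 mouse, and bars give the mean ± SD of 4 mice. The genotypes do not overlap at any of the 7 probes, and only the interval transcript is higher in α-Gal A(-/0) mice.

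Dtx3l encodes an E3 ubiquitin ligase that acts as a dimer with the ADP-ribosyltransferase Parp9. Its tested probe (chr16:35926655-35926714, reverse strand) gave 7.66, 7.86, 7.68 and 7.57 in α-Gal A(-/0) mice and 8.44, 8.29, 8.55 and 8.17 in wildtype mice. The groups did not overlap, and the difference was −0.67 ± 0.10 (adjusted p = 0.0211). The other Dtx3l probes, A_66_P106060 and A_55_P2174541, were well above background on at most 1 array and were not tested. Upk1b encodes uroplakin 1B, a tetraspanin of the urothelium. Its probe (chr16:38773859-38773918, reverse strand) lay near the lower limit of the arrays, with 3.26, 3.03, 4.04 and 3.36 in α-Gal A(-/0) mice and 4.78, 5.04, 4.84 and 5.38 in wildtype mice. It was well above background on all 4 wildtype arrays and on none of the 4 α-Gal A(-/0) arrays, the only tested member of which this was true. It therefore entered the test only through the wildtype mice, and 6 probes were called and 18 were past the criterion without it. The measured means were 3.42 in α-Gal A(-/0) and 5.01 in wildtype mice (adjusted p = 0.0164). Against the mean of the lowest signals well above background on the α-Gal A(-/0) arrays, the wildtype mean was 1.43-fold higher. That mean includes α-Gal A(-/0) replicate 2, and 1.43-fold is no lower bound, since normexp gave a smaller difference. The size depended on the background correction, with a difference of −0.33 after normexp, and on α-Gal A(-/0) replicate 2 the lowest such signal, 5.48, lay above the wildtype mean, so the lack of detection on that array gives no information.
The central 30 bases of these 2 probes are given because each stands alone for its gene.
Dtx3l A_55_P2059154: tgcaaattccacgtggtggagggctcaatg
Upk1b A_51_P113195: agtttggagaatggagacgactctcattcc

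Among the 12 probes past the criterion but not past the adjustment was one of Apod. The gene encodes apolipoprotein D, a lipid carrier that glia secrete. Probe A_55_P2055158 gave 2.79, 2.42, 7.54 and 2.13 in α-Gal A(-/0) mice and 8.36, 7.90, 8.31 and 8.55 in wildtype mice. Replicate 3 of the α-Gal A(-/0) mice lay close to the wildtype mice, while the other 3 were not well above background. The fitted difference was −4.56 ± 1.10 (adjusted p = 0.153), but it rests on 3 values at the background level and its size is not a measured fold. It was −1.89 after normexp background correction and −5.82 without α-Gal A(-/0) replicate 3. The probe passed the adjustment in both, but it entered the test only through the wildtype mice, so these calls are descriptions only. The other Apod probe, A_55_P2093286, lies close by, the targets together spanning 0.966 kb. It gave 14.28, 14.44, 14.82 and 14.74 in α-Gal A(-/0) mice and 14.72, 14.61, 14.70 and 14.80 in wildtype mice, which overlapped (−0.14 ± 0.12).

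Ppp1r2, which encodes inhibitor 2 of protein phosphatase 1, had 5 tested probes within 6.89 kb, of which 2 were past the criterion. Probe A_55_P1959869 gave 11.90, 11.79, 11.81 and 11.67 in α-Gal A(-/0) mice and 11.37, 11.40, 11.41 and 11.64 in wildtype mice (0.34 ± 0.08, groups not overlapping). Probe A_55_P2103145 gave 8.98, 9.01, 8.86 and 8.63 in α-Gal A(-/0) mice and 8.19, 8.70, 8.25 and 8.47 in wildtype mice (0.46 ± 0.13, groups overlapping). Probes A_55_P2111735, A_55_P2181288 and A_55_P1960496 gave 0.21 ± 0.08, 0.32 ± 0.10 and −0.12 ± 0.10. The array's annotation pairs 4 of the 5 probes with non-coding transcript records besides Ppp1r2. Whether other transcripts share their signal was not tested. TC1603217, an unnamed transcript cluster between these probes, gave 0.58 ± 0.19.

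Kalrn encodes kalirin, a guanine nucleotide exchange factor at dendritic spines. Its 7 tested probes, spread over 205 kb, ran in both directions. Probe A_51_P400016 gave 10.85, 10.97, 10.81 and 10.89 in α-Gal A(-/0) mice and 10.65, 10.62, 10.45 and 10.73 in wildtype mice (0.26 ± 0.07). The brightest probe, A_55_P2095814, gave 14.99, 14.83, 14.76 and 14.99 in α-Gal A(-/0) mice and 15.23, 15.06, 15.17 and 15.13 in wildtype mice (−0.26 ± 0.07). The genotypes did not overlap at either probe, the first just past and the second just short of 1.2-fold. The 5 other Kalrn probes lay between −0.20 and 0.07. Within the span of Kalrn, probe A_55_P2183572, for which the array gives no gene, had 6.60, 6.44, 6.56 and 6.69 in α-Gal A(-/0) mice and 7.01, 7.30, 6.93 and 6.91 in wildtype mice (−0.46 ± 0.10, adjusted p = 0.103). Bases 16 to 45 of it (chr16:34030670-34030729, reverse strand) are given because no name identifies it.
Probe A_55_P2183572: attgtatgctttcctctcctggctttatac

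**Figure D2:**
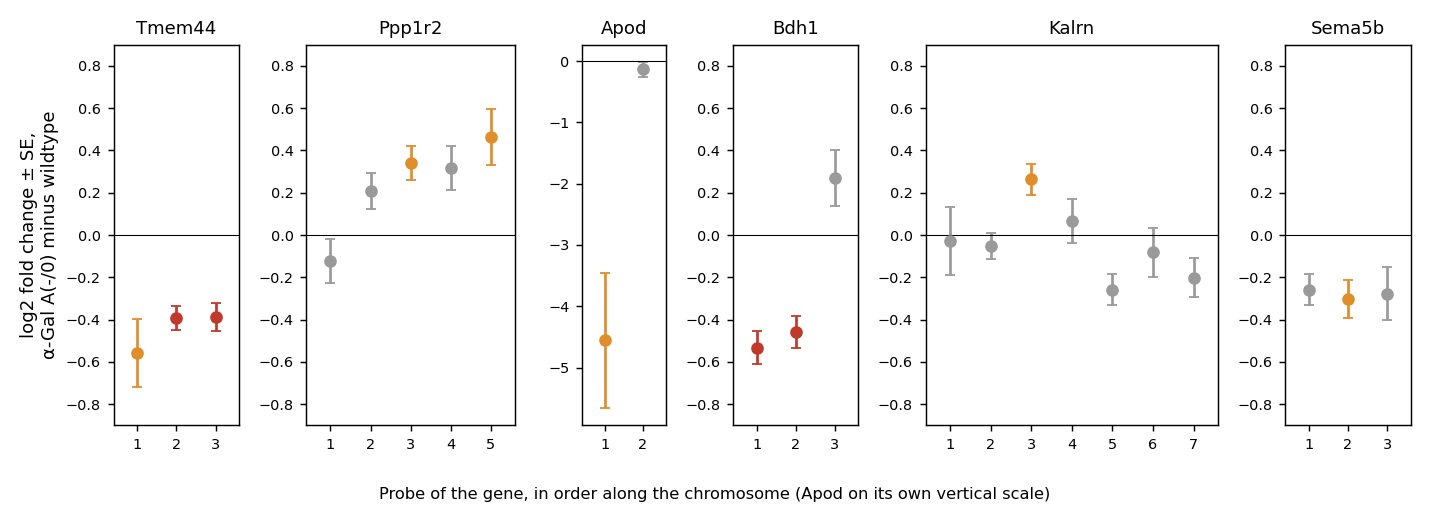
Difference between the genotypes (log2 fold change, α-Gal A(-/0) minus wildtype; points) with its SE (bars, 4 mice per genotype) for each tested probe of 6 genes, in order along the chromosome; red marks an adjusted p under 0.05, orange the criterion only, grey neither. The probes of Tmem44 and of Sema5b lie together, while those of Bdh1, Apod, Ppp1r2 and Kalrn do not; Apod has its own vertical scale.

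Sema5b, a semaphorin that guides axons, gave −0.26 ± 0.07, −0.30 ± 0.09 and −0.28 ± 0.13 at its 3 probes (A_55_P1973844, A_55_P1994112 and A_55_P1994107), of which only A_55_P1994112 was past the criterion and none was called. Poglut1, which adds glucose to Notch receptors in the endoplasmic reticulum, gave 9.46, 9.43, 9.85 and 9.71 in α-Gal A(-/0) mice and 10.16, 10.08, 10.14 and 10.22 in wildtype mice. The groups did not overlap (−0.54 ± 0.10), and its adjusted p was the nearest to the threshold from above (0.0613). Hcls1, a cortactin-like protein of blood cells and microglia, gave 9.53, 9.45, 9.50 and 9.66 in α-Gal A(-/0) mice and 9.98, 9.94, 10.07 and 9.70 in wildtype mice (−0.38 ± 0.09, adjusted p = 0.135). LOC100047123, an uncharacterized predicted transcript beside Bdh1, gave 8.04, 7.88, 8.21 and 8.18 in α-Gal A(-/0) mice and 8.44, 8.43, 8.33 and 8.47 in wildtype mice (−0.34 ± 0.08).
The probe of the transcript ENSMUST00000023534, which the array describes as Golgb1, a giant Golgi matrix protein, gave 13.03, 13.38, 13.18 and 13.24 in α-Gal A(-/0) mice and 12.79, 12.90, 12.95 and 12.99 in wildtype mice (0.30 ± 0.08). The 2 probes listed under the symbol Golgb1 gave −0.03 ± 0.05 (A_55_P2051859) and 0.48 ± 0.59 (A_55_P2134992), so the 3 probes described as Golgb1 ran from −0.03 to 0.48. The second probe of the interval chr16:34559623-34560462 gave 10.64, 10.36, 10.46 and 10.46 in α-Gal A(-/0) mice and 10.97, 10.94, 10.68 and 10.69 in wildtype mice (−0.34 ± 0.10). Its neighbours A_30_P01020639 and A_30_P01022637 gave −0.18 ± 0.10 and −0.10 ± 0.09, with overlapping groups.

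Over the block, 34 symbols had several tested probes. Of these, 7 had a probe past the criterion, and in 6 of the 7 another probe of the same symbol was not past it. The median range of the differences within a symbol was 0.17 log2 units, and Bdh1 and Kalrn had probes beyond 0.2 in both directions. All 179 tested probes had distinct sequences, 8 overlapped another tested target by position and 56 started within 1 kb of another, so probes are not independent of each other. Counted by symbol, intervals and other identifiers included, 5 of 121 tested symbols were called at their brightest probe and 13 were past the criterion. The share by symbol over the whole array was not computed, so no comparison is drawn.

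The differences were unevenly spread along the block. The first and last called probes started at 30.5142 and 38.7739 Mb, 8.26 Mb apart, and the first and last past the criterion at 30.5122 and 38.7739 Mb. The last in both cases was Upk1b, which entered the test only through the wildtype mice; without it the last called probe was that of Dtx3l at 35.9267 Mb and the last past the criterion that of Poglut1 at 38.5258 Mb. Over the 0.945 Mb from Tmem44 (30.5122 Mb) to Bdh1 (31.4574 Mb), 10 of 25 tested probes were past the criterion and 5 were called. Over the rest of the block these were 9 and 2 of 154. Both ends of this stretch were set at probes past the criterion, so the contrast with the rest is only a description. Tmem44, Ppp1r2 and Bdh1 each gave more than 1 of its probes past the criterion, and its Apod probe entered the test only through the wildtype mice. After Bdh1 none of 59 tested probes of 44 symbols was past it over 2.56 Mb, up to Kalrn, with 4 at an unadjusted p under 0.05. From there to Hcls1 at 36.9632 Mb, the probes past the criterion lay singly or in pairs. Another stretch of 1.56 Mb with 25 tested probes, none past the criterion and none at an unadjusted p under 0.05, ended at Poglut1; the 3 Timmdc1 probes, which are not counted here, lie within it and had unadjusted p-values under 0.05. After Upk1b, none of the last 6 tested probes of the block was past it. In windows of 1 Mb, 4 of 10 held a called probe and 6 of 10 a probe past the criterion; in windows of 2 Mb these were 3 of 5 and 4 of 5.

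**Figure D3:**
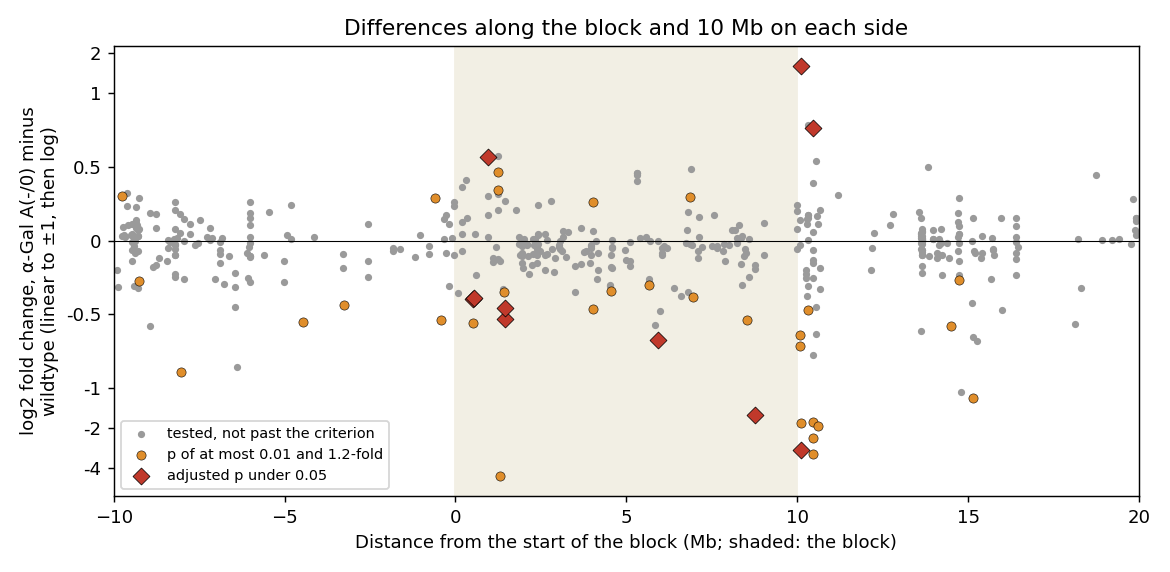
Difference between the genotypes (vertical axis, log2 fold change, α-Gal A(-/0) minus wildtype, linear to 1 and logarithmic beyond) of each tested probe against its distance in Mb from the start of the block (horizontal axis; block shaded, Timmdc1 left out). Probes that differed gather between Tmem44 and Bdh1, near the start of the block, and again just past its end.

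Neither border coincided with an end of the differences. Below 30 Mb, the nearest probe past the criterion was A_55_P2065253 at 29.5909 Mb (−0.53), 0.921 Mb from the first inside. Next to 30 Mb, 2 probes of a reverse-strand interval gave 0.24 ± 0.11 and 0.26 ± 0.16. Just above it, Hes1, a transcriptional repressor in the Notch pathway, gave 7.06, 6.57, 6.65 and 6.92 in α-Gal A(-/0) mice and 7.20, 7.11, 7.19 and 7.13 in wildtype mice (−0.36 ± 0.11), and a reverse-strand interval probe gave −0.07 ± 0.24. Inside 40 Mb, 2 probes of the interval chr16:39984031-40081556 gave 0.20 ± 0.20 and 0.24 ± 0.15. Outside it, the predicted gene Gm16498 gave −0.64 ± 0.15 and an interval probe −0.03 ± 0.09. In the 10 Mb below the block 0 of 134 tested probes were called by limma, with 7 past the criterion and 21 at an unadjusted p under 0.05. In the first 1 Mb above it 3 of 40 were called and 11 were past the criterion, and from 41 to 50 Mb 0 of 103 were called, with 3 past the criterion and 6 at an unadjusted p under 0.05.

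All but 1 of the 40 tested probes between 40 and 41 Mb were interval transcripts. In that Mb the median size of the difference was 0.28, against 0.10 inside the block and 0.09 over all tested probes of the array. Neighbouring probes of the forward-strand interval chr16:40096026-40097242 gave 1.59 ± 0.21, −2.91 ± 0.43 and −1.83 ± 0.44, that is, in both directions. The difference between these windows was not tested.

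**Figure D4:**
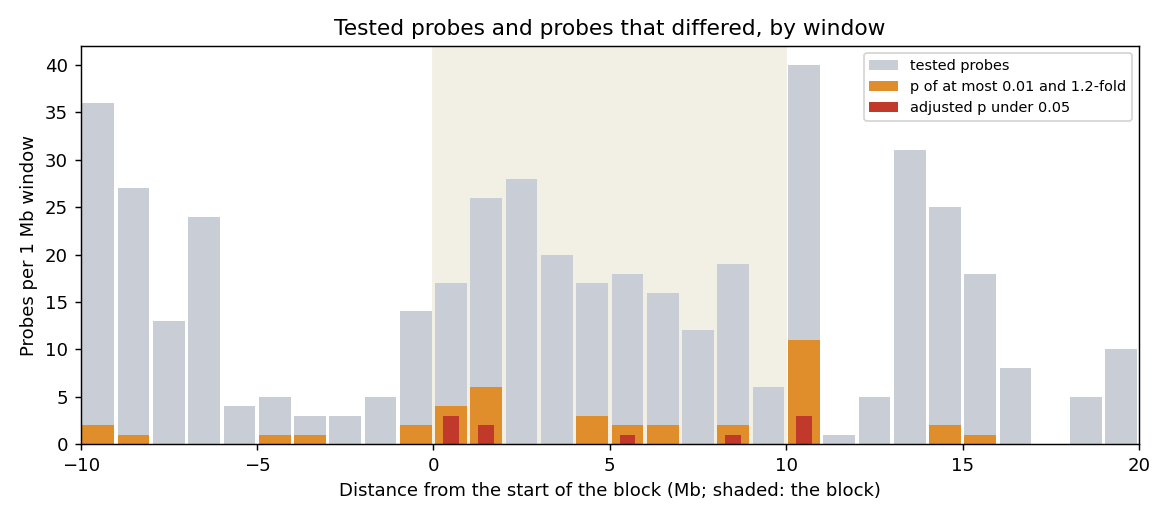
Number of tested probes (grey), of probes past the criterion (orange) and of probes with an adjusted p under 0.05 (red) in each 1 Mb window, against the distance in Mb from the start of the block (shaded; Timmdc1 left out). The window just past the block holds 11 probes past the criterion among 40 (27.5%), a larger number than any window inside it. The largest share inside the block is 4 of 17 (23.5%), in its first window.

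By kind of probe, 24 of 67 interval probes were tested (35.8%), against 139 of 187 probes with a gene symbol (74.3%). Of the tested ones, 1 of 24 interval probes was called and 2 were past the criterion, whereas 6 of 139 gene probes were called and 14 were past it; the difference between these shares was not tested. The 2 interval probes past the criterion ran in opposite directions. Probes of other identifiers gave 0 calls among 16, with 3 past the criterion (LOC100047123, A_55_P2183572 and ENSMUST00000023534). Of 20 interval transcripts with a probe in the block, 12 had a tested probe. In the reverse-strand interval chr16:34524589-34573439, which encloses the interval at chr16:34559623-34560462, 5 probes ran between −0.30 and 0.00.

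The median GC content of the probes past the criterion was 41.7%, against 40% for the other tested probes of the block. The median size of their difference was 0.46, against 0.09 for the others. At the edge of the criterion, Sema5b probe A_55_P1994112 (1.23-fold) was just inside by its p-value, while Dlg1 probe A_55_P2011712 (1.154-fold) and Sema5b probe A_55_P1973844 (1.197-fold) were just outside by their size.

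The genes of the block were also read by role, each gene at its brightest probe, beside a median difference of −0.05 over all tested probes of the block and −0.02 over those of the array. In the group of PARP and DTX neighbours (Dtx3l, Parp9, Parp14, Kpna1 and Wdr5b), 1 of 5 tested probes was called, Dtx3l, and the median difference was −0.48. Parp9 and Parp14, ADP-ribosyltransferases that interferon induces, gave −0.48 ± 0.17 and −0.57 ± 0.22 and did not pass the test. For Parp14 the levels were 7.98, 7.90, 7.74 and 8.19 in α-Gal A(-/0) mice and 8.93, 8.11, 8.93 and 8.11 in wildtype mice; for Parp9 they were 7.55, 7.31, 7.39 and 7.55 in α-Gal A(-/0) mice and 8.26, 7.52, 8.22 and 7.70 in wildtype mice. In both, wildtype replicates 1 and 3 were high, and wildtype replicates 2 and 4 lay within or close to the α-Gal A(-/0) range. Kpna1, an importin, and Wdr5b, a WD-repeat protein, gave −0.08 and −0.05.

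Genes of immune cell surface and signaling (7 genes, 8 tested probes) held 0 calls and 1 probe past the criterion, Hcls1, with a median of −0.23. Cd86, a costimulatory ligand of T cells, gave 6.97, 6.80, 6.91 and 7.17 in α-Gal A(-/0) mice and 7.50, 6.999, 7.63 and 7.21 in wildtype mice (−0.37 ± 0.15), again with wildtype replicates 1 and 3 highest. Nrros, a microglial protein that holds latent TGF-β, gave −0.23 ± 0.09. Gp5, a platelet glycoprotein, ran the other way, with 6.06, 6.57, 5.98 and 6.10 in α-Gal A(-/0) mice and 5.91, 5.61, 5.83 and 5.71 in wildtype mice (0.41 ± 0.13). Of 5 microglial markers (Cx3cr1, P2ry12, Csf1r, Tmem119 and Aif1), 1 was called lower (Csf1r) and 3 were past the criterion. Their summed level, on the log2 scale, ran from 14.69 to 14.76 in α-Gal A(-/0) mice and from 15.04 to 15.23 in wildtype mice. Its part in the values of Hcls1, Cd86 and Nrros was not tested. For astrocyte markers, none of them called, the sum ran from 14.90 to 15.07 in α-Gal A(-/0) and from 15.10 to 15.16 in wildtype mice. The sums of the other marker lists overlapped between the genotypes.

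**Figure D5:**
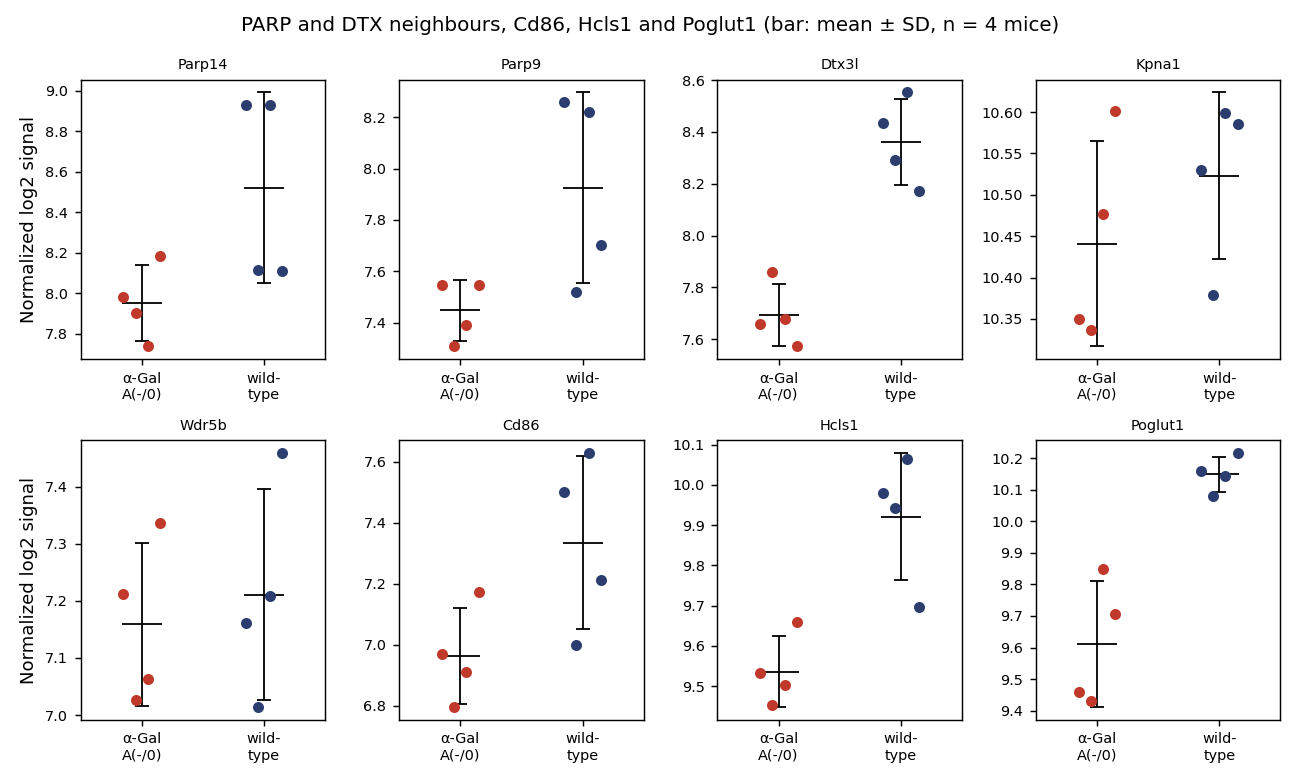
Normalized log2 signal (vertical axes, each with its own range) of the 5 tested PARP and DTX neighbours and of Cd86, Hcls1 and Poglut1, in α-Gal A(-/0) mice (red, left) and wildtype mice (blue, right); each point is 1 mouse, and bars give the mean ± SD of 4 mice. Dtx3l, Hcls1 and Poglut1 do not overlap between the genotypes, while for Parp14, Parp9 and Cd86 a pair of wildtype mice lies high and the other pair lies within or near the α-Gal A(-/0) range.

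Genes listed under kinases, GTPase regulators and signaling receptors (11 genes, 27 tested probes) held 0 calls, with 3 probes past the criterion, all higher, and a median of −0.02. Of these 3, 2 were of Ppp1r2, a phosphatase inhibitor and so none of these, and 1 was of Kalrn, whose probes ran in both directions. Adcy5, the main adenylyl cyclase of the striatum, gave 13.39, 13.53, 13.16 and 12.28 in α-Gal A(-/0) mice and 12.28, 13.10, 12.56 and 12.65 in wildtype mice at its brightest probe (0.44 ± 0.28), so that 3 α-Gal A(-/0) mice lay above every wildtype mouse and replicate 4 lay at the level of the lowest. Its other probes gave 0.46 ± 0.24 and 0.41 ± 0.26. The 5 striatal markers (Drd1a, Drd2, Ppp1r1b, Rgs9 and Adora2a) gave differences between 0.52 and 0.86, none called, with a summed level of 14.91 to 16.26 in α-Gal A(-/0) mice and 14.43 to 15.71 in wildtype mice; their part in the Adcy5 values was not tested.

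In the group of synapse, adhesion and guidance genes (7 genes, 17 tested probes), 2 probes were called lower and 4 were past the criterion, all lower. Both calls and 3 of these 4 were of Tmem44, a membrane protein without an established role of this kind, and the other was of Sema5b. Dlg1, which encodes the synaptic scaffold SAP97, gave 0.21 ± 0.06 at one probe, where the genotypes did not overlap, and −0.02 and 0.03 at the others. Itgb5, an integrin subunit, gave −0.15 ± 0.06. Among mitochondrial proteins (5 genes, 9 tested probes) the 2 calls were those of Bdh1, while Ndufb4, a subunit of complex I, and Fam162a gave −0.04 ± 0.07 and −0.10 ± 0.07. Among genes of the secretory pathway and glycosylation (13 genes, 15 tested probes) Poglut1 was the only one past the criterion, and none was called; Sec22a, a vesicle trafficking protein, gave 0.46 ± 0.20 and Tmem39a gave −0.25 ± 0.11.

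Genes of iron and lipid handling (9 genes, 16 tested probes) held no call and 1 probe past the criterion, of Apod. At their brightest probes they lay between −0.17 and 0.05. B4galt4, a galactosyltransferase that can act on glycolipids, gave 10.83, 10.83, 10.89 and 10.89 in α-Gal A(-/0) mice and 11.08, 10.9999, 10.98 and 11.04 in wildtype mice (−0.17 ± 0.05), a small difference without overlap. Ptplb, named Hacd2 in RefSeq, a dehydratase of fatty acid elongation, gave −0.14 ± 0.06. Among genes listed under mucins and related proteins (4 genes tested) the only call was that of Upk1b, a tetraspanin and not a mucin. Muc20 gave 0.27 ± 0.16 and Heg1 −0.08 ± 0.17.

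In the remaining groups no probe was called or past the criterion. Genes of transcription, chromatin, DNA repair and ubiquitin or SUMO (9 genes, 13 tested probes) had a median of −0.10, and all 9 lay below 0 at their brightest probe; Hes1 (above), the zinc finger factor Zfp148 (−0.34 ± 0.11) and the ubiquitin ligase component Fbxo45 (−0.16 ± 0.08) had the largest values. Genes listed under ribosome and nucleotide synthesis (4 genes) ran from −0.10 to 0.05, with Umps at −0.10 ± 0.05 and Rpl35a at −0.05 ± 0.05; Adprh, a hydrolase that removes ADP-ribose from proteins and so does not share this role, gave −0.10 ± 0.05. Genes listed under cilium and sperm (5 genes) ran from −0.10 (Cep19) to 0.17 (Rabl3); Popdc2, a Popeye-domain protein of heart and skeletal muscle and no such gene, gave 0.03. The stefin A cluster, 11 genes for inhibitors of cysteine cathepsins, was mostly not well above background: only Stfa2 was tested, with 4.97, 4.69, 4.75 and 5.38 in α-Gal A(-/0) mice and 5.01, 4.86, 5.83 and 5.36 in wildtype mice (−0.32 ± 0.23).

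Timmdc1, which helps to assemble mitochondrial complex I, lies next to Poglut1 but was not a member; it had differences of 0.76 ± 0.10, 0.26 ± 0.10 and 0.44 ± 0.17 at its 3 probes, of which the first was called.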

How the data were processed

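Cyanine-3 signals of 8 one-color Agilent SurePrint G3 Mouse 8x60K arrays were used. The intensity per spot (processed signal, background-subtracted) was deposited by the authors as scanner output of Agilent Feature Extraction 10.7.3.1, per the file headers and the submitters' processing notes. A deposited value table of the series was not used, since its columns did not follow the sample names. Spot signals were log2-transformed, quantile normalized over the 8 arrays as in the study's methods, and averaged per probe. Control probes were removed, as were 81 probes of which a spot was flagged as uneven. A probe had to be detected well above background in all 4 mice of a genotype, and was then tested with limma 3.58.1 (R 4.3.3), with Benjamini-Hochberg adjustment over 34339 probes. The fit was tested on simulated data. No probe was saturated.

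The mice were separate animals. Members, gene lists and named genes were chosen with earlier results of these data known. Named were called probes, up to 15 further probes past the criterion, 2 tested probes on each side of each border, the 3 members of each list with the largest difference at the brightest probe, all other probes of named called or criterion genes, and probes detected in only one genotype. Other genes are named as members of a list or neighbours of a named probe, chosen after their values were seen. Of 125 gene symbols in the block, 112 were current RefSeq symbols and 8 were RefSeq synonyms. The number of arrays limits the precision. Alternatives were another normalization, another background correction, other filters, the methods' t-test, other variance models, blocks by replicate number and slide row, and each array left out; each slide row alone was added after seeing the data.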

Additional observations from a re-analysis of the deposited data

Results flagged for a closer look

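For 61 probes named in the block, both genotypes were searched for 1 mouse far from the other 3, and 6 of 122 groups were marked, where chance marks about 1 in 20. At Apod probe A_55_P2055158, α-Gal A(-/0) replicate 3 (7.54) lay far above the other α-Gal A(-/0) mice (2.13 to 2.79). α-Gal A(-/0) replicate 3 was also apart at Ptplb (11.06, next highest 10.90) and at interval probe A_30_P01023157 (6.99, next highest 6.45). Wildtype replicate 2 was apart at Kalrn probes A_55_P2160623 (12.07, next highest 11.93) and A_55_P2095844 (9.95, next highest 9.66). Wildtype replicate 4 was apart at Ppp1r2 probe A_55_P1959869 (11.64, next highest 11.41), on the side of the α-Gal A(-/0) mice.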

How the results depend on the processing

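Of the block's probes, 7 were called and 19 were past the criterion with all 8 arrays. The called number was 8 after normexp and with intensity trend and robust variances. It was 7 with detection required on all 8 arrays and 6 with a 75th percentile shift. With no filter on signal it was 2, by the methods' t-test 1, with the slide row as a block 1 and with the replicate number as a block 0. Calls over the whole array also fell, from 301 to 223 with no filter, 92 by the t-test, 144 with the slide row and 150 with the replicate number as a block. They were 397 after normexp, 424 with intensity trend and robust variances, 265 with detection on all 8 arrays and 321 with the 75th percentile shift. Leaving out saturated probes changed nothing, since no probe was saturated. Each slide row alone sets 1 mouse of a genotype against 3 of the other, which says nothing about stability. Those past the criterion numbered 23 with intensity trend and robust variances, of which 9 were higher, 11 by the methods' t-test, 12 with the slide row as a block, 10 in row 1 alone and 0 in row 2 alone. Leaving out each array in turn gave 0 to 5 called, 13 to 20 past the criterion and 30 to 45 without overlap of the genotypes. Past the criterion, the share over the whole array was then 2.47% to 4.11%, against 3.43% with all arrays. Without overlap, the share over the whole array was 9.5% to 14.1%, against 7.94% with all arrays. Among interval probes the 1 call was 0 with no filter, by the methods' t-test and with either block, and 0 to 1 with an array left out. Among gene probes the 6 calls were 1 with no filter, by the methods' t-test and with the slide row as a block. They were 0 with the replicate block and 0 to 5 with an array left out. With an array left out, the first called probe started between 30.5142 and 38.7739 Mb and the last between 30.9401 and 38.7739 Mb. The last at 30.9401 Mb, without α-Gal A(-/0) replicate 4, was interval probe A_30_P01022355. It was not tested with all arrays and entered that fit only through the α-Gal A(-/0) mice. By the criterion, with all arrays, the first started at 30.5122 Mb. The cause of these shifts was not tested. The replicate numbers did not pair the mice (correlations of same-numbered residuals −0.09, 0.14, 0.01 and 0.15); under that block limma gave 48 probes at an unadjusted p under 0.05, and the differences were the same by construction. Among the 7 called probes, the number of 18 or 19 other fits that also called them ran from 3 to 9. Those fits include each slide row alone and the fit without saturated probes, which was the same as the main fit and so called all 7. Values near the lower limit of the arrays, those of Upk1b and of the dim Apod probe, carry the least precision.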
